A study of Rattus norvegicus with 4 samples.

Results

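The microRNAs of the imprinted Dlk1-Dio3 cluster were examined in extracellular vesicles (EVs), the membrane-bound particles that cells release. They were chosen by position: the microRNA names of the PC12 table that lie on chromosome 6 within 500 kb of the start of miR-127-3p. This gave 51 of the 528 microRNA names in that table. A second table, which covers all 4 libraries, holds 762 names, of which 100 belong to the cluster. These 100 are the 51 members and names that RefSeq places in the same window.

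The study profiled EV microRNA in 2 rat cell lines. RMT1, labelled a breast cancer cell, gave 2 libraries from vesicles collected by ultracentrifugation of the culture medium. PC12, labelled a catecholamine cell and derived from an adrenal medulla tumour, gave 1 library titled EVd and 1 titled EVu. The labels give no treatment or genotype for any library and do not say what d and u stand for, so both are used as names. All RNA was extracted and made into libraries with the same kits per the labels' protocols. Nothing in them says whether the RMT1 libraries came from separate cultures. The p-values of the main test reflect the spread of that pair alone, and it may be technical. The alternative count tests took EVd and EVu as 1 group, so their p-values also hold the difference between those 2 libraries. With 1 library each, EVd and EVu can be compared as libraries and not as conditions, and a cell line cannot be told apart from a preparation batch.

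In mammals the Dlk1-Dio3 region is imprinted. The protein-coding genes Dlk1, Rtl1 and Dio3 are expressed from the paternal chromosome, and the long noncoding RNAs Meg3, Rian and Mirg and the microRNAs embedded in them from the maternal chromosome. The microRNAs are abundant in embryo, placenta and brain, and those of the Mirg end have been studied for dendrite growth and synapse strength in rat neurons. Each hairpin can give a mature microRNA from its 5p and from its 3p arm, and bases 2 to 8 of the mature RNA, the seed, guide it to its targets.

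The sequences of the most abundant members are given first, since they carry most counts of the cluster. They come from RefSeq (build GRCr8), written 5′ to 3′ with the seed in capitals; 49 of the 51 members had an entry, and miR-127-5p and miR-136-5p had none.
miR-1188-5p: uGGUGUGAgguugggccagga
miR-127-3p: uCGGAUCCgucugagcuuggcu
miR-379-3p: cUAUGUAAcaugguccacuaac
miR-370-3p: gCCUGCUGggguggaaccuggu
miR-411-3p: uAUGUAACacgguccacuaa
miR-323-5p: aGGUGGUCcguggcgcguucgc
miR-410-5p: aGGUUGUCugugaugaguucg
miR-485-5p: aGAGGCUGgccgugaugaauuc
miR-412-3p: cUUCACCUgguccacuagccgu
miR-770-5p: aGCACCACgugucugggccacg

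The 5p partners of the miR-379 and miR-411 hairpins are shown because the arms of miR-411 differed between the libraries, and miR-496-5p because it shares its seed with miR-410-5p.
miR-379-5p: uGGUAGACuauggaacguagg
miR-411-5p: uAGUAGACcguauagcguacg
miR-496-5p: aGGUUGUCcaugguguguuc

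Seeds were compared among the cluster names only, and most members shared theirs with none of these. miR-370-5p shared its seed with miR-1193-3p, miR-539-3p with miR-381-3p and miR-299a-5p with miR-299b-5p. The seed GGUUGUC was held by miR-410-5p and miR-496-5p among the members and by miR-494-5p among the other cluster names. The miR-411-3p seed also occurs in miR-379-3p, where it starts at base 3 and so lies outside the exact seed position. Over the 49 members with a sequence the median GC content was 50%, against 47.8% in 426 other microRNA names of the PC12 table, and 28.6% of members began with U, against 37.1% of the other names.

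The members lie in the order of the known transcripts. In the coordinates of the PC12 table, whose build is not named, miR-127-3p is at chromosome 6, 142875663 to 142875684, on the plus strand. The first member is miR-770-5p at -30.6 kb from it and the last is miR-410-5p at 180.7 kb, with a gap of 118 kb between miR-370-3p at 26.5 kb and miR-379-5p at 144 kb. RefSeq (GRCr8) places the miR-770 hairpin within Meg3 and the miR-127 hairpin within the span of Rtl1. Members were grouped by name after the mouse transcripts: 8 at the Meg3 end, 7 of the Rtl1 antisense transcript, 5 of Rian and 28 of Mirg, with miR-3543, miR-3592 and miR-666-5p in no list. The Meg3 end group counts miR-3544 and the Mirg group miR-409b by name only. Both lie on the minus strand, opposite to the other members of their groups. The 51 members come from 39 hairpins. Of the 51, 47 lie on the plus strand and 4 on the minus strand, and miR-434-5p, miR-434-3p and miR-3543 each have a second locus in the window, to which their counts cannot be divided.

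Some members face each other on opposite strands. miR-3543 is complementary to miR-434-3p over 22 bases and miR-3544 to miR-337-5p over 18 bases. Whether the authors' counting used strand is not given in the sources used here, so the counts of these 4 names are uncertain. The same holds for miR-409b, miR-3592, miR-369-5p and miR-299a-5p, which are complementary over 17 to 22 bases to cluster names outside the PC12 table (miR-409a-3p, miR-382-3p, miR-3578 and miR-299b-3p).

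In the PC12 table the cluster held 2933 of 376175 microRNA counts in EVd and 3310 of 495341 in EVu. That is 0.780% of EVd (95% exact Clopper-Pearson interval 0.752% to 0.808%) and 0.668% of EVu (0.646% to 0.691%). The log2 ratio of these shares, EVd over EVu, was 0.22 (0.15 to 0.29), so the summed share was higher in EVd by more than counting error. All intervals cover counting error only and say nothing of the spread between cultures.

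A few members held most of it. The 10 most abundant took 77.6% of the cluster's counts in EVd and 75.0% in EVu. miR-1188-5p, from the Rian stretch, alone took 30.4% in EVd and 37.1% in EVu, with 891 counts in EVd and 1229 in EVu, and it ranked 58 among the 528 microRNA names by mean CPM (counts scaled to a library total of 1e6 microRNA counts). miR-127-3p, processed from the transcript antisense to Rtl1, a gene it represses in mouse, ranked 88 with 1223 CPM in EVd and 830 CPM in EVu. miR-379-3p, at the start of the Mirg stretch, had 142 counts in EVd and 313 in EVu.

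Further abundant members came from the Rian and Mirg stretches. miR-370-3p of the Rian stretch had 152 counts in EVd and 112 in EVu. miR-411-3p had 169 in EVd and 53 in EVu. miR-323-5p had 129 in EVd and 101 in EVu. These 3 were higher in EVd, as counts and as CPM.

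miR-485-5p, the arm of the hairpin studied at rat hippocampal synapses, had 98 counts in EVd and 74 in EVu. miR-410-5p, the last member of the window, had 109 in EVd and 64 in EVu. miR-412-3p had 74 in EVd and 48 in EVu, and miR-770-5p, the first member of the window, had 52 in EVd and 76 in EVu. Only miR-770-5p of these 4 was lower in EVd.

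The remaining members were sparse: 32 of the 51 had fewer than 30 counts in both libraries, and the median mean count was 17, against 41.5 in the 477 other names. The lowest count was 1 in EVd, for miR-487b-5p, and 3 in EVu, for miR-496-5p. The table lists a name only where the higher of its 2 counts is at least 10, so a member absent from it is below that level and not necessarily at 0.

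**Figure D1:**
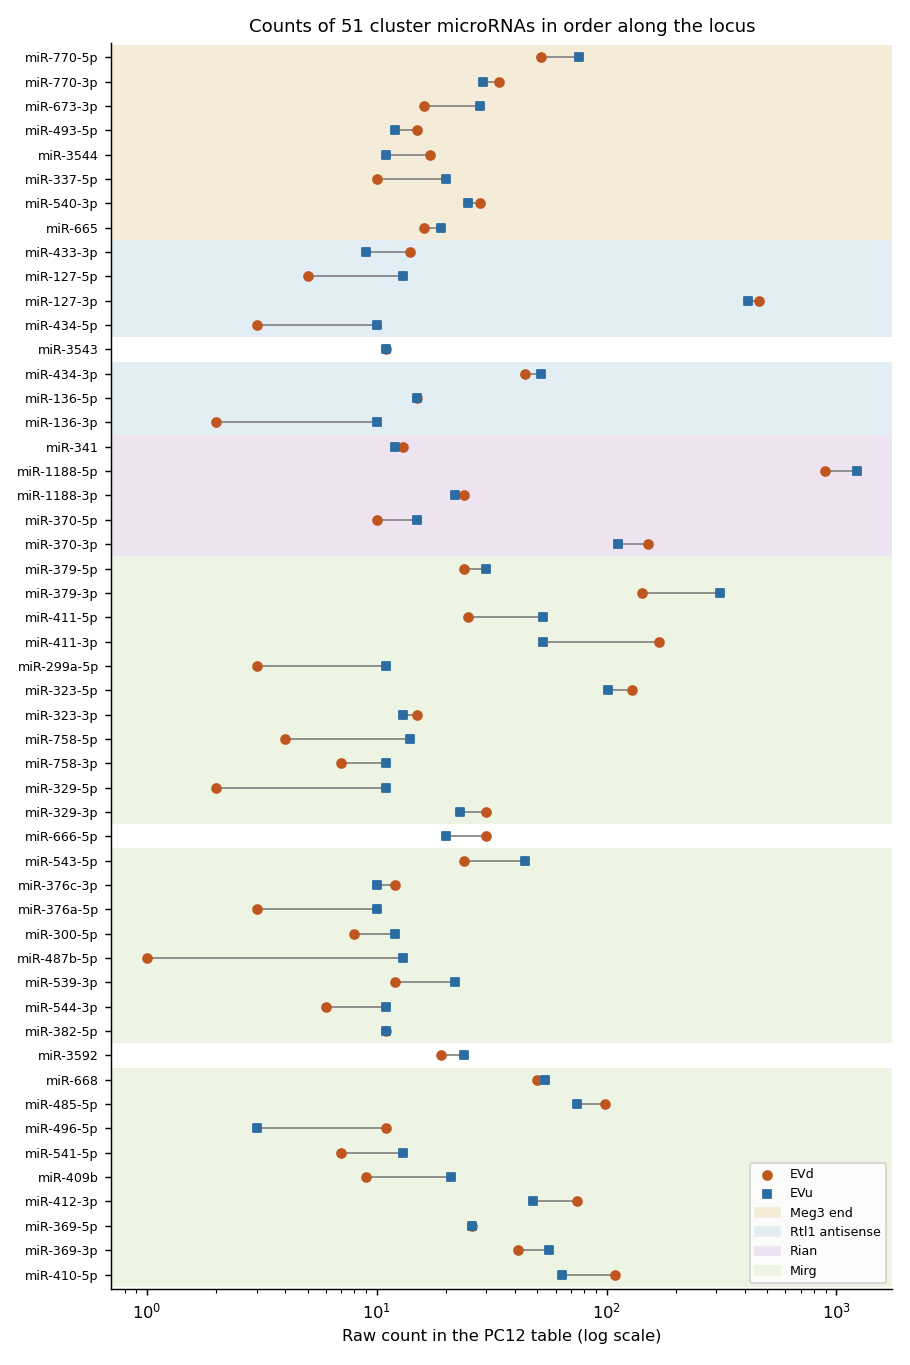
Raw counts of the 51 members in the PC12 table on a log axis, in order along the locus with the Dlk1 side at the top; circles are EVd, squares are EVu, and shading marks the stretches by transcript. miR-1188-5p (891 in EVd, 1229 in EVu) and miR-127-3p stand above their neighbours, which mostly have fewer than 30 counts.

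It was then asked whether members differed between EVd and EVu along the cluster. Ratios are log2 of CPM plus a pseudocount of 1 CPM, EVd over EVu, and were counted at a 2-fold difference among names with a mean of at least 10 counts, with no test since each group is 1 library. Of the 51 members, 40 reached that mean, and 3 of the 40 were at least 2-fold higher in EVd, against 13.6% of all 472 names past the same minimum. None of the 40 was at least 2-fold lower, against 6.99% of all names; the smallest ratio was -0.80, for miR-409b. The median ratio of the 40 was 0.38, against 0.05 over all 472 names, with 27 members above 0 and 13 below. The count of 3 was 5 with a pseudocount of 0.1 CPM (66 of all 472 names) and 6 with totals that left out the 10 most abundant microRNAs (71 of all names). It was 2, without miR-412-3p, with a pseudocount of 10 CPM (53 of all names), with TMM size factors (62) and under the authors' scaling (61). The median was 0.15 with no minimum and 0.75 over the 11 members with a mean of at least 50 counts.

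The 3 members past 2-fold were all in the Mirg stretch. miR-411-3p had 449 CPM in EVd and 107 CPM in EVu, a ratio of 2.06 (95% counting interval 1.62 to 2.54). miR-410-5p had 290 CPM in EVd and 129 CPM in EVu, a ratio of 1.16 (0.71 to 1.63). miR-412-3p had 197 CPM in EVd and 96.9 CPM in EVu, a ratio of 1.01 (0.48 to 1.58).

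Intervals wholly above 0 were found for 8 of the 40 members, against 24.6% of all names, and an interval wholly below 0 for 1, against 19.9%. Beside the 3 above, the 8 included miR-127-3p at 0.56 (0.36 to 0.75), miR-370-3p at 0.83 (0.476 to 1.203), miR-323-5p at 0.75 (0.36 to 1.14), miR-485-5p at 0.80 (0.35 to 1.26) and miR-666-5p at 0.96 (0.12 to 1.88). The member below 0 was miR-379-3p at -0.74 (-1.04 to -0.45), with 142 counts in EVd and 313 in EVu. Its sequence is nearly that of miR-411-3p, which went the other way, and whether their reads were told apart was not tested. For 31 members the interval held 0.

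Among these, the sparse members named for their high ratios were miR-433-3p with 14 counts in EVd and 9 in EVu, with a counting interval of the ratio from -0.28 to 2.42, and miR-3544 with 17 in EVd and 11 in EVu, a ratio of 0.99 (-0.15 to 2.27). Those named for their low ratios were miR-409b with 9 counts in EVd and 21 in EVu (-0.80, interval -2.14 to 0.36), miR-411-5p with 25 in EVd and 53 in EVu (-0.68, -1.43 to 0.02), miR-337-5p with 10 in EVd and 20 in EVu (-0.58, -1.86 to 0.56) and miR-541-5p with 7 in EVd and 13 in EVu (-0.47, -2.06 to 0.94). None of these 6 differed beyond counting error.

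The most abundant member did not follow the median. miR-1188-5p had 2369 CPM in EVd and 2481 CPM in EVu, a ratio of -0.07 with an interval of -0.19 to 0.06. Without it the cluster's share was 0.543% of EVd and 0.420% of EVu, a log2 ratio of 0.37 (0.28 to 0.46).

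The 11 members below the minimum mean went the other way: 10 had a ratio below 0 and 1, miR-496-5p with 11 counts in EVd and 3 in EVu, above 0. The listing rule bears on them, since a name with so low a mean is listed only through a count of at least 10 in either library, and EVu is the deeper of the pair. miR-487b-5p had 1 count in EVd and 13 in EVu, and miR-329-5p had 2 in EVd and 11 in EVu.

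**Figure D2:**
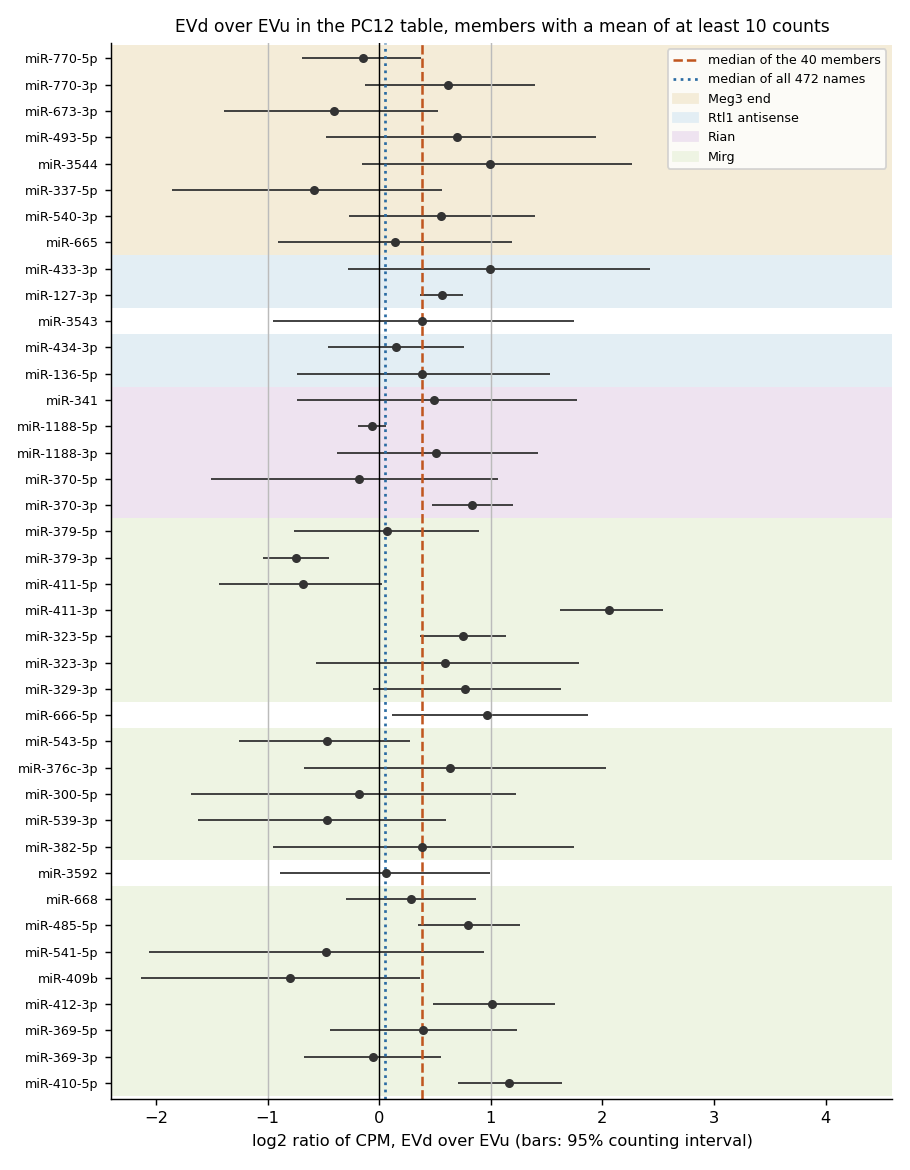
Log2 ratio of CPM, EVd over EVu, for the 40 members with a mean of at least 10 counts, in order along the locus; bars are 95% counting intervals, grey lines mark a 2-fold difference, and the dashed and dotted lines mark the medians of the members (0.38) and of all 472 names (0.05). miR-411-3p stands at 2.06 and miR-379-3p, from the neighbouring hairpin and nearly the same in sequence, at -0.74.

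By stretch, the 8 members at the Meg3 end had a median ratio of 0.35, with 0 of the 8 past 2-fold. The 4 Rtl1 antisense members past the minimum had a median of 0.47 and were all above 0. Those below it, miR-127-5p, miR-434-5p and miR-136-3p, were all below 0. The 5 Rian members had a median of 0.50 and the 20 Mirg members a median of 0.33, with 12 above 0 and 8 below. As summed shares, the Rtl1 antisense stretch held 0.144% of EVd and 0.105% of EVu (log2 ratio 0.46, 0.28 to 0.64) and the Mirg stretch 0.280% of EVd and 0.227% of EVu (0.30, 0.18 to 0.42). The sums of the Meg3 end (0.17, -0.12 to 0.46) and of Rian (0.05, -0.07 to 0.16) had intervals that held 0.

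By arm, the 16 members of the 3p arm past the minimum had a median ratio of 0.57, with 12 above 0, and the 17 of the 5p arm a median of 0.07, with 9 above 0. The 3p arms summed to 0.341% of EVd and 0.254% of EVu (log2 ratio 0.42, 0.31 to 0.54). The 5p arms summed to 0.403% of EVd and 0.384% of EVu (0.07, -0.03 to 0.17). Each sum has a leading member. miR-127-3p alone held 0.122% of EVd and 0.083% of EVu in the 3p sum. miR-1188-5p alone held 0.237% of EVd and 0.248% of EVu in the 5p sum. Also in the 3p sum, miR-411-3p had a ratio of 2.06 and miR-379-3p a ratio of -0.74. The sums by arm were not taken without these members, so an effect of the arm itself was not tested.

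Within a hairpin, the share of the 5p arm does not depend on how the libraries are scaled. Both arms were listed for 12 hairpins. The 3p arm held over 50% of the counts in both libraries for 6 of them, and the 5p arm did so for 4. The miR-127 hairpin was almost all 3p, with a 5p share of 1.08% in EVd and 3.07% in EVu, and the miR-1188 hairpin almost all 5p, with 97.4% in EVd and 98.2% in EVu. The other 20 hairpins with a named arm had only 1 arm in the table, the 5p arm for 13 and the 3p arm for 7.

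The balance of arms differed between the libraries beyond counting error in 2 of the 12 hairpins, miR-411 and miR-329. For miR-329 the difference is partly fixed by the listing rule, while both arms of miR-411 passed it in each library. The 3p counts of the miR-411 and miR-379 hairpins are uncertain, since the 2 sequences are nearly the same and went opposite ways. Whether their reads were told apart was not tested. For miR-411, 5p and 3p had 25 and 169 counts in EVd, against 53 and 53 in EVu. The 5p share was 12.9% in EVd (95% exact binomial interval 8.52% to 18.4%) and 50% in EVu (40.1% to 59.9%), a log2 odds ratio, EVd over EVu, of -2.75 (exact conditional interval -3.64 to -1.89).

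For miR-329, which has been studied with other Mirg microRNAs in dendrites of rat neurons, 5p and 3p had 2 and 30 counts in EVd, against 11 and 23 in EVu. The 5p share was 6.25% in EVd (0.766% to 20.8%) and 32.4% in EVu (17.4% to 50.5%), with a log2 odds ratio of -2.80 (-6.15 to -0.41). The neighbouring miR-379 hairpin had a 5p share of 14.5% in EVd and 8.75% in EVu, with a log2 odds ratio of 0.82 (-0.08 to 1.70) that did not leave 0.

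**Figure D3:**
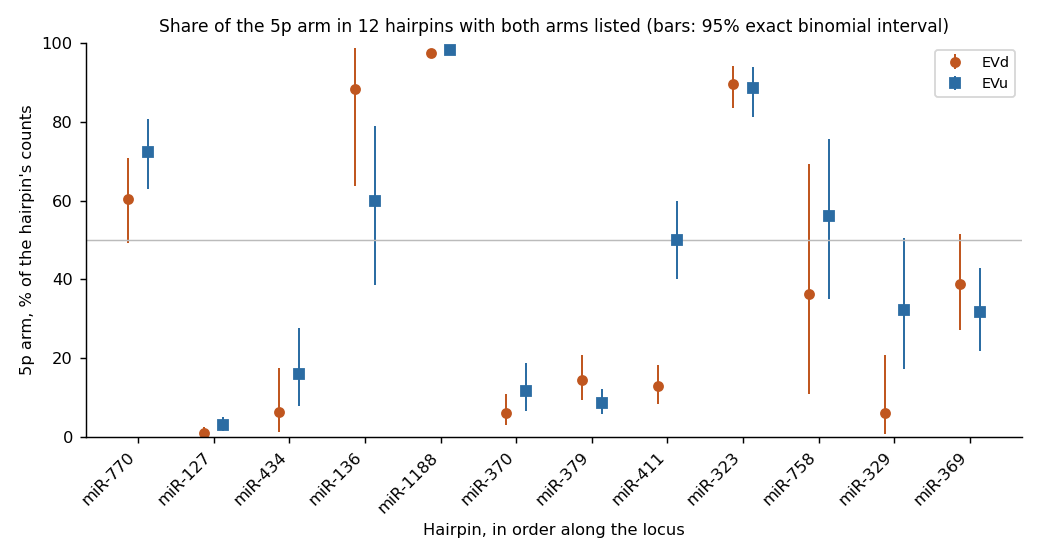
Share of the 5p arm, in percent of a hairpin's counts in the PC12 table, for the 12 hairpins with both arms listed, in order along the locus; circles are EVd, squares are EVu and bars are 95% exact binomial intervals. The EVd and EVu intervals are apart for miR-411 (12.9% in EVd, 50% in EVu), while miR-1188 and miR-323 lie near the top and miR-127 near 0 in both.

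The same PC12 libraries were then read from the table of 4 libraries, whose values on the linear scale are whole multiples of 1 step per library and so give back counts. The cluster was nearly missing there. Of the 51 members, 41 had 0 counts in all 4 libraries, 80.4%, against 115 of 469 other names listed in both tables, 24.5%. A count of 0 allows up to 3 counts, which are 8.87 CPM in EVd and 6.87 CPM in EVu. Among names with a mean of 10 to under 100 counts in the PC12 table, 28 of 34 members were at 0 throughout, against 70 of 257 other names.

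The summed counts show the size of the gap. The members had 7 counts in EVd and 50 in EVu there, which is 0.239% of their PC12-table counts in EVd and 1.51% in EVu, while the other names kept 90.5% in EVd and 88.7% in EVu. Abundant names carry the sum: among names with a mean of 10 to under 100 counts, where 34 members lie, members kept 0.530% in EVd and 2.46% in EVu, and other names 36.5% in EVd and 44.8% in EVu. No member had counts within 20% of each other in the 2 tables, in either library, against 29.9% of the 469 other names in EVd and 28.6% in EVu.

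The most abundant members were affected too. miR-1188-5p had 891 counts in EVd and 1229 in EVu in the PC12 table and 0 in all libraries of the other. miR-127-3p had 1223 CPM in EVd and 830 CPM in EVu in the PC12 table, and 2.96 CPM in EVd (1 count) and 48.1 CPM in EVu (21 counts) in the other table. miR-411-3p and miR-379-3p, with over 50 counts a library in the PC12 table, were at 0, while their 5p partners had counts: miR-379-5p 3 in EVd and 9 in EVu, and miR-411-5p 0 in EVd and 9 in EVu. The arm that leads these 2 hairpins in EVd was therefore not the same in the 2 tables for miR-379, and miR-411 had no EVd count to compare.

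The gap was not shared by every microRNA near the window. Among the names before it, miR-345-3p at -957 kb and miR-342-3p at -1144 kb had 194 and 1096 counts in EVd and 234 and 2784 in EVu in the PC12 table, and 184 and 1052 in EVd and 205 and 2609 in EVu in the other. Their sparse 5p arms lost a larger part: miR-345-5p had 20 counts in EVd and 34 in EVu, and 2 and 6 in the other table. For miR-342-5p these were 8 in EVd and 12 in EVu, and 4 and 8. After the window, miR-1247-5p at 890 kb had 481 counts in EVd and 221 in EVu in the PC12 table, and no count in the table of 4 libraries. How the 2 tables were counted is not given in the sources used here, so which of them holds the cluster's level cannot be told, and every EVd over EVu value above rests on the PC12 table alone.

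**Figure D4:**
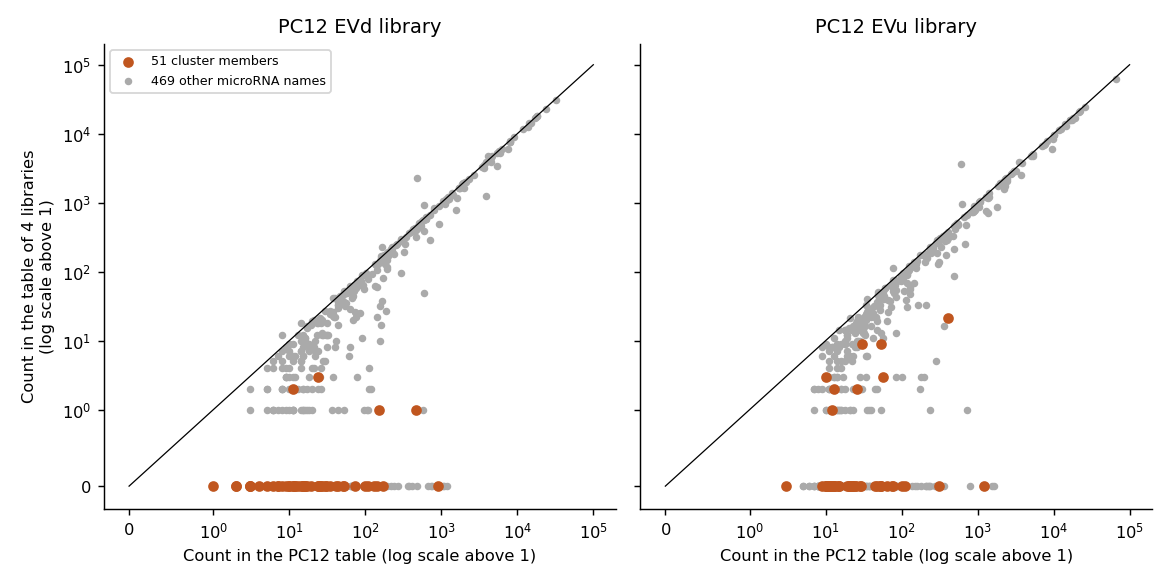
Count of each microRNA name in the PC12 table (horizontal) and in the table of 4 libraries (vertical), for EVd on the left and EVu on the right, on axes that are logarithmic above 1; orange points are the 51 members, grey points 469 other names, and the line marks equal counts. Many grey points follow the line at high counts, while all members lie below it and 41 of the 51 are at 0 in both panels.

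Last, RMT1 was compared with PC12, which only the table of 4 libraries allows. Its totals were 799224 and 716940 counts in the RMT1 libraries, 338233 in EVd and 436840 in EVu. Over the 100 cluster names the sum was 6 and 8 counts in RMT1 EV 1 and 2, 10 in EVd and 72 in EVu. This is 7.51 and 11.2 CPM in RMT1, 29.6 CPM in EVd (95% exact Clopper-Pearson interval 14.2 to 54.4) and 165 CPM in EVu (129 to 208). The RMT1 libraries were the lowest and EVu was above the others, and the interval of EVd overlapped those of RMT1 EV 1 (2.76 to 16.3) and RMT1 EV 2 (4.82 to 21.99).

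The pooled share of RMT1 over that of PC12 was 0.0873 (exact interval 0.0457 to 0.155), from 14 RMT1 counts and 82 PC12 counts. This ratio compares these libraries and not the conditions. Without EVu it was 0.312 (0.129 to 0.786), so the size of the difference rests largely on the EVu library, and under the authors' scaling it was 0.277 (0.145 to 0.492). With 2 libraries against 2, an exact two-sided permutation test cannot go below p = 0.333.

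Single names were too sparse to test. Only 18 of the 100 names had a count in any library, and the highest count of a cluster name in an RMT1 library was 4. miR-127-3p had 0 and 4 counts in RMT1, 1 in EVd and 21 in EVu. miR-382-5p had 4 and 1 in RMT1, 2 in EVd and 0 in EVu. miR-411-5p had 2 and 1 in RMT1, 0 in EVd and 9 in EVu. The ranges of RMT1 and PC12 overlapped for all 3 names. Of the cluster names absent from the PC12 table, miR-409a-3p had the most counts, 8 in EVu and 0 in the other libraries.

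In limma's test with a mean-variance trend, on names whose linear values averaged at least 10, 278 names were tested. At an adjusted p under 0.05 (Benjamini-Hochberg), 37.1% of them were lower in RMT1 and 33.1% higher, but none of the 51 members reached the minimum, so 0 were called in either direction, none had an unadjusted p, and none entered the edgeR and DESeq2 tests at the same minimum. With no minimum, 10 members entered the limma fit and 7 were called lower, against 43.6% of the 440 names tested. Those 7 were at 0 in both RMT1 libraries, which leaves no spread to measure, so the calls rest on an error near 0 and not on replicates. edgeR's quasi-likelihood test with no minimum was chosen after seeing the data. It took EVd and EVu as replicates of 1 PC12 group, though they are not known to be. It called 1 of the 10 lower, against 36.1% of names: miR-379-5p, with 0 and 0 counts in RMT1, 3 in EVd and 9 in EVu (edgeR, Benjamini-Hochberg adjusted p = 0.0209). For miR-379-5p the 12 pooled PC12 counts were taken as exact, with no counting error. On that footing its pooled share was at least 7.82-fold lower in RMT1, with a floor of 3 counts over both RMT1 libraries. Most of its PC12 counts were from EVu, and without that library its 3 counts in EVd are at the floor and give no bound.

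In this table the direction between the PC12 libraries also turned. The cluster's summed share of EVd over that of EVu was 0.179 (0.0825 to 0.349), a log2 ratio of -2.48, while the PC12 table gave 0.22. Markers of blood cells were also lower in EVd: 5 names (miR-451-5p, miR-486, miR-144-3p, miR-142-3p and miR-223-3p), all detected, summed to 17 and 14 counts in RMT1, 20 in EVd and 591 in EVu. Single markers ran from 0 to 14 counts in RMT1, 0 to 10 in EVd and 30 to 187 in EVu. They were lower in EVd in the PC12 table too, though less so, where they summed to 55 counts in EVd and 820 in EVu while the cluster's share was higher in EVd. Their part in the result was not tested.

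The cell line markers followed the labels in part. Of 5 neuroendocrine names, miR-375-3p had 0 and 0 counts in RMT1, 1023 in EVd and 2899 in EVu, and miR-9a-5p 0 and 0 in RMT1, 1124 in EVd and 2018 in EVu, while miR-124-3p had 1 count in EVd and 0 in the others. miR-129-5p had 2 and 0 counts in RMT1, fewer than in either PC12 library. miR-7a-5p, the most abundant of the 5, was present in both lines, with 1187 and 1130 counts in RMT1, 6059 in EVd and 6901 in EVu. The 6 epithelial names summed to 9038 and 7873 counts in RMT1, 63 in EVd and 85 in EVu.

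Other imprinted microRNAs had varied levels. miR-335, in an intron of Mest, had 5 and 0 counts in RMT1, 3287 in EVd and 4768 in EVu, and 3425 in EVd and 5350 in EVu in the PC12 table. The 4 names of the Gnas locus summed to 17.5 and 5.58 CPM in RMT1, 1129 CPM in EVd and 1328 CPM in EVu. The 7 names of the Sfmbt2 list went the other way, with 1184 and 1038 counts in RMT1, 0 in EVd and 1 in EVu. Of these, miR-466b-3p had 8 counts in EVd and 26 in EVu in the PC12 table but 0 in both in the table of 4 libraries. Like the cluster, miR-483-3p of Igf2 had 43 counts in EVd and 15 in EVu in the PC12 table but 1 in EVd and 1 in EVu in the other, and miR-675-5p of H19 had 15 in EVd and 5 in EVu in the PC12 table but 0 in the other.

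**Figure D5:**
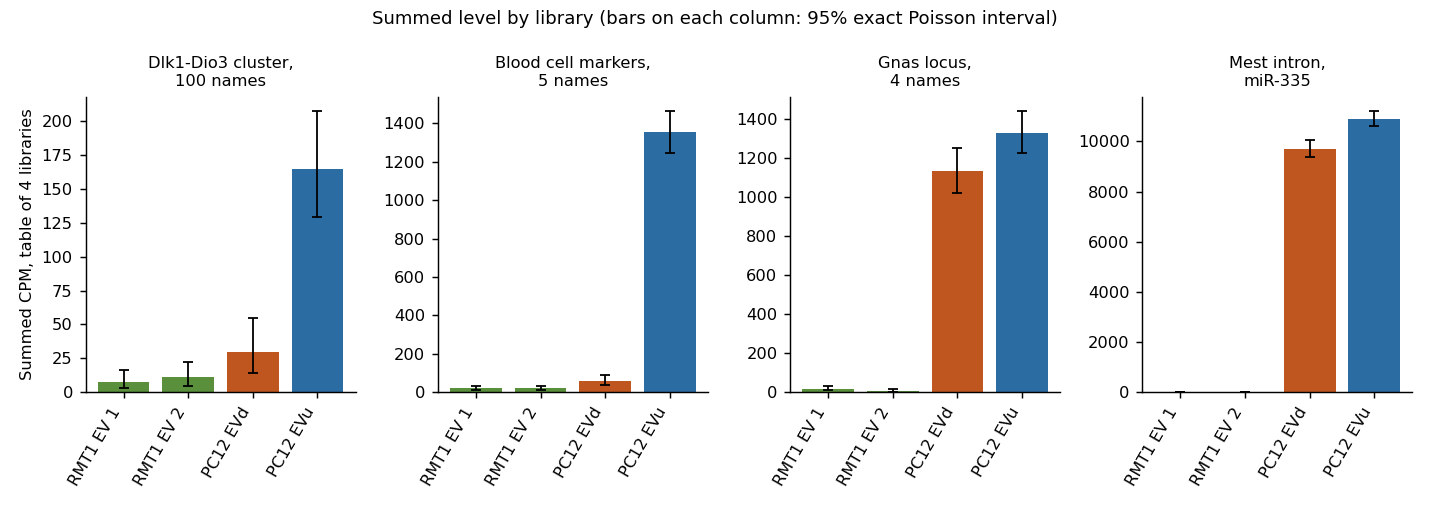
Summed CPM by library in the table of 4 libraries for the 100 cluster names, 5 blood cell markers, 4 names of the Gnas locus and miR-335 of Mest, each panel on its own linear axis from 0. Error bars are 95% exact Clopper-Pearson intervals, named Poisson in the plot title. The cluster stands at 7.51 and 11.2 CPM in RMT1, 29.6 in EVd and 165 in EVu, and the blood markers share the high EVu value, while Gnas and Mest are high in both PC12 libraries.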

How the data were processed

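EV small RNA was sequenced in 4 libraries, RMT1 EV 1 and 2, PC12 EVd and PC12 EVu, prepared per the labels' protocols with the QIAseq miRNA kit. The PC12 table holds raw counts per the file headers, deposited by the authors, beside their log2 normalized values. The table of 4 libraries holds log2 values scaled over the libraries by the authors, with 0 where nothing was counted. No aligner, counter or scaling method is given in the sources used here. The submitters' processing notes name the mouse build mm10, although the microRNA names have the prefix of rat. Dividing the linear values by 1 step per library gave whole counts for 100% of values within 0.1 of a count.

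Members were found by position in the PC12 table, and 66 piRNA rows were left out. Members and lists were chosen with earlier results of these data known. The list of the 100 cluster names was extended with RefSeq names after values were seen. EVd and EVu were compared by the log2 of their CPM ratio with a pseudocount of 1 CPM, with exact 95% binomial intervals. There 3 counts are 7.98 CPM in EVd and 6.06 CPM in EVu, the limit a count of 0 allows. In the table of 4 libraries 3 counts are 3.75 and 4.18 CPM in RMT1, 8.87 CPM in EVd and 6.87 CPM in EVu. Whether counts are reads or molecules is not given in the sources used here, and intervals cover counting error only.

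RMT1 was compared with PC12 by limma 3.58.1 with a trend in 3 groups (1 residual degree of freedom), with Benjamini-Hochberg adjustment at 0.05. edgeR 4.0.16 and DESeq2 1.42.0 were run on recovered counts in R 4.3.3 as alternatives, in 2 groups with EVd and EVu pooled as PC12. Named members were the 10 most abundant, the 5 highest and 5 lowest ratios past the minimum mean, those with at least 10 counts in an RMT1 library or called higher there (0 of each), and those at the window ends; others named in the text were chosen after their values were seen.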

Additional observations from a re-analysis of the deposited data

How the results depend on the processing

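Reading EVd over EVu from the table of 4 libraries in place of the PC12 table reversed it. The median log2 ratio became -3.63, resting on the only member past the minimum, miR-127-3p, and the log2 ratio of summed shares became -2.47. There 0 members were at least 2-fold higher and 1 lower, against 26 higher and 32 lower of 246 names. The cause of the reversal was not tested. On the PC12 table the count of members at least 2-fold higher was 5 with a pseudocount of 0.1 CPM (66 of all 472 names). It was 6 when totals left out the 10 most abundant microRNAs (71 of all names). It was 2 (miR-412-3p lost) with a pseudocount of 10 CPM (53 of all names), TMM (62) or the authors' scaling (61). With no minimum 7 of the 51 members were at least 2-fold lower, against 54 of all 528 names. The median ratio stayed above 0 under the settings run on the PC12 table, from 0.15 with no minimum to 0.75 at a minimum mean of 50 counts. The log2 ratio of summed shares was 0.30 when totals left out the 10 most abundant microRNAs, 0.37 without miR-1188-5p and 0.45 without members at 0 in all 4 libraries of the other table, the last chosen after seeing the data. Members called lower in RMT1 numbered 7 by limma and 1 by edgeR with no minimum. The summed log2 ratio of RMT1 over PC12 in the table of 4 libraries, whose alternatives were all chosen after seeing the data, was -1.85 under the authors' scaling, and -4.16 to -1.68 with each library left out in turn, weakest without EVu. Counts of 0 members called between RMT1 and PC12 under the settings that kept the minimum say nothing of stability, since at most 1 member could be tested in any of them. The median difference of members between RMT1 and PC12 has no value, since none passed the minimum, and leaving out an RMT1 library left no residual spread, so no test was made. The labels number 2 RMT1 libraries and 1 of each PC12 kind. No paired analysis was possible because the groups compared share fewer than 2 replicate numbers. Depth limits most members, whose counts are below 30.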
